A study of Danio rerio with 6 samples.

Results

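The myogenic transcription factors examined here are the basic helix-loop-helix factors *myod1*, *myf5*, *myog* and *myf6*, the MADS-box factors *mef2aa*, *mef2ca* and *mef2d*, and *prdm1a* and *tcf15*. They were taken by name from the count table. Of the 9 listed genes, 8 were matched among the 23150 genes of the table, and *tcf15* was not analysed here. All 8 passed the filter on low counts, which left 20021 genes to test. RNA-seq libraries were prepared from pools of de-yolked whole zebrafish embryos at 18 hours post fertilization (hpf), with 3 libraries from *dusp2/dusp6* double mutants and 3 from wildtype embryos. The mutants were homozygous for the um287 deletion of *dusp2* and the um286 deletion of *dusp6*, and both of their parents carried the same homozygous deletions, so the maternal and paternal copies were mutant as well. Both alleles were made with CRISPR/Cas9. The wildtype line of the study is Ekkwill, and wildtype embryos carried intact copies of both genes. *dusp6* and *dusp2* encode dual-specificity phosphatases, enzymes that switch off the MAP kinase ERK, which acts downstream of FGF. The comparison asks which transcripts differ between embryos that lack both phosphatases and wildtype embryos. It is applied here to the factors that build skeletal muscle. The paper reports that a large part of the offspring of such mutant parents stalls before completing a cell division. These embryos die before gastrulation ends, so the mutant pools could hold only survivors. Wildtype embryos also came from other parents. Survival, parentage and line thus go with genotype here, and their part in the differences was not tested.

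Skeletal muscle of the trunk forms in the somites, blocks of mesoderm that bud off one after another on both sides of the notochord. In zebrafish, *myf5* and *myod1* commit cells to the muscle fate, and *myog* acts when committed cells leave the cell cycle and differentiate. *myf6*, also called *mrf4*, comes on late in muscle fibres. These 4 proteins pair with E proteins and bind E-box sequences, while Id proteins hold the E proteins back. MEF2 factors work together with them on the genes of the contractile apparatus. *prdm1a* directs the adaxial cells next to the notochord into slow fibres, in response to Hedgehog signals, and represses fast-fibre genes there. Several of these genes are also active outside muscle, for example *mef2ca* in the heart and *prdm1a* in the hatching gland and the neural plate border.

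The libraries held between 36310355 and 45161306 expected counts, with overlapping depths (37989443 to 44657980 in the mutants and 36310355 to 45161306 in wildtype). Levels are given as CPM, counts scaled to library size by the TMM method. A gene is called where edgeR's quasi-likelihood test gave an adjusted p under 0.05 (Benjamini-Hochberg, over all genes tested). The targeted genes followed the labels, with *dusp6* at 28.5 to 32.4 CPM in the mutants and 212 to 229 CPM in wildtype, and *dusp2* at 0.0719 to 0.187 CPM in the mutants and 0.934 to 1.55 CPM in wildtype. Differences within a genotype exceeded counting noise (chi-square per degree of freedom 3.62 to 15.5), so no library repeated the reads of another, and the numbering in the labels was taken to mark replicates. Nothing in the labels says that the libraries came from separate pools or clutches, so p-values measure the spread between these libraries, which may be technical. Mutant replicate D stood apart from mutant replicates A and C, with chi-square values of 15.5 and 12.7 against 4.33 between A and C. Fold changes and counts of calls were therefore also computed without it. The libraries are from whole embryos, so fewer cells of a type and less RNA per cell cannot be told apart in any of the values that follow. Markers of heart, epidermis, nervous system, notochord, hatching gland and primitive erythroid cells had counts in all 6 libraries, and so did the muscle genes of the lists below except *pvalb1*, at 0 in wildtype replicate B.

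In the mutants the factors moved in different directions. *myf5* rose by 39.7% and *myog*, *mef2ca* and *mef2d* fell to 0.64, 0.62 and 0.78 times their wildtype levels, while *myod1*, *myf6*, *mef2aa* and *prdm1a* did not pass the test. In all, 4 of the 8 genes were called, beside 34.5% of all genes tested. By direction, 1 of 8 was called higher, beside 17.4% of all genes, and 3 of 8 were called lower, beside 17.1%. None of the 8 was called with a fold change over 2, which holds for 4.95% of all genes, and DESeq2 and limma-voom also gave 0. Before adjustment, 5 of the 8 had a p under 0.05, none of them with a fold change over 2. Mutant and wildtype ranges were apart in 5 of the 8 genes, beside 49.1% of all genes. The share of called genes grows with abundance, from 17.3% of genes under 1 CPM to 42.5% of genes between 10 and 100 CPM and 45.8% of genes above 100 CPM, and 6 of the 8 factors lie in the 2 upper classes. A share of 4 in 8 is near these backgrounds, so the number of calls says nothing particular about the factors. The median log2 fold change of the 8 was -0.25, beside -0.00065 for all genes tested.

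**Figure D1:**
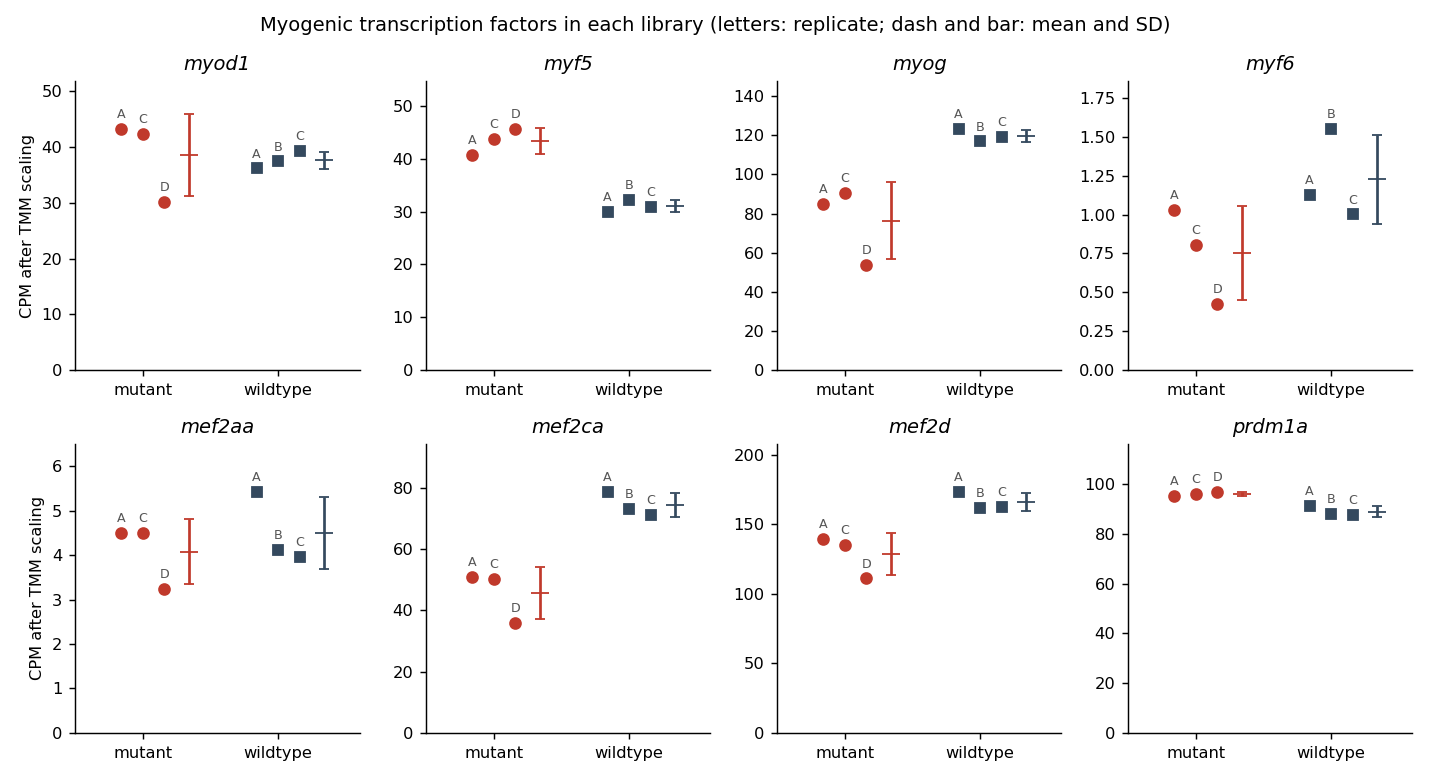
CPM after TMM scaling of the 8 factors in the 3 mutant libraries (red circles, replicates A, C and D) and the 3 wildtype libraries (blue squares, replicates A, B and C), with mean and SD beside the points. The groups separate for *myf5*, *myog*, *mef2ca*, *mef2d* and *prdm1a*, and mutant replicate D is the lowest mutant library for 6 of the 8 genes.

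Of the 2 factors that commit cells to muscle, *myf5* was higher in the mutants and *myod1* was not called. *myf5* was at 40.6, 43.7 and 45.6 CPM in mutant replicates A, C and D, and at 30.0, 32.2 and 30.8 CPM in wildtype replicates A, B and C. All mutant libraries lay above all wildtype libraries, and the spread within each genotype was small beside the distance between them. The mean was 43.3 ± 2.5 CPM in the mutants and 31.0 ± 1.09 CPM in wildtype (SD, n = 3 libraries each). The log2 fold change was 0.48 (SE, the standard error, 0.0584, edgeR adjusted p = 1.2e-04). It was called under all 12 alternatives, with log2 fold changes from 0.44 to 0.53.

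*myod1* was at 43.2 and 42.3 CPM in mutant replicates A and C and at 30.2 CPM in mutant replicate D, and at 36.2, 37.4 and 39.3 CPM in wildtype. Mutant replicates A and C were thus above every wildtype library and mutant replicate D below every one of them. The log2 fold change over all libraries was 0.04 (SE 0.110, edgeR adjusted p = 0.82), with an interval of 2 SE on either side from -0.18 to 0.26. Without mutant replicate D it was 0.18 with an adjusted p of 0.020, so the call for *myod1* rests on whether that library is kept.

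Of the factors that act in differentiation, *myog* fell in the mutants and *myf6* was not called. *myog* was at 85.0, 90.4 and 53.9 CPM in mutant replicates A, C and D, and at 123, 117 and 119 CPM in wildtype. Even the highest mutant library was below the lowest wildtype library, and the 3 wildtype values lay close together. The mean was 76.4 ± 19.7 CPM in the mutants and 120 ± 3.18 CPM in wildtype (SD, n = 3 each). The log2 fold change was -0.64 (SE 0.140, edgeR adjusted p = 0.0048). Without mutant replicate D the log2 fold change was -0.45, with an adjusted p of 2.0e-06. The fall was then smaller, and so was the spread within the mutants.

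*myf6* had the fewest counts of the 8, with 43, 35 and 16 expected counts in mutant replicates A, C and D and 42, 58 and 46 in wildtype. In CPM this was 1.03, 0.802 and 0.427 in the mutants and 1.13, 1.55 and 1.00 in wildtype, so mutant replicate A overlapped the wildtype range. Its log2 fold change of -0.68 was as large as that of *myog*, but with an SE of 0.318 and an adjusted p of 0.12 it was not called. In the RefSeq annotation of assembly GRCz12tu, *myf6* and *myf5* are direct neighbours among protein-coding genes. Their log2 fold changes had opposite signs, though only that of *myf5* was called.

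Among the MEF2 factors, *mef2ca* fell most. It was at 50.9, 50.1 and 35.9 CPM in mutant replicates A, C and D, and at 78.6, 73.1 and 71.1 CPM in wildtype. The groups did not overlap, and the gap remained wide with mutant replicate D set aside. The log2 fold change was -0.70 (SE 0.106, edgeR adjusted p = 5.3e-04), and -0.56 without mutant replicate D (adjusted p = 8.8e-07).

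*mef2d* was at 139, 135 and 111 CPM in the mutants and at 173, 162 and 163 CPM in wildtype. Here too all mutant libraries were below all wildtype libraries. Its log2 fold change was -0.37 (SE 0.0736, edgeR adjusted p = 0.0030), or -0.28 without mutant replicate D (adjusted p = 1.7e-04). *mef2aa* was at 4.51, 4.49 and 3.23 CPM in the mutants and at 5.42, 4.11 and 3.96 CPM in wildtype. These ranges overlapped, and the log2 fold change was -0.13 (SE 0.165, edgeR adjusted p = 0.57), with an interval of 2 SE from -0.46 to 0.20. Without mutant replicate D it was 0.0013.

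*prdm1a*, the slow-fibre regulator, was the steadiest of the 8 in the mutants, at 95.1, 96.0 and 96.9 CPM in replicates A, C and D, beside 91.4, 88.0 and 87.5 CPM in wildtype. All mutant libraries were above all wildtype libraries, by a small margin. The log2 fold change was 0.11 (SE 0.0416), with an interval of 2 SE from 0.03 to 0.19, and its edgeR adjusted p of 0.061 did not reach the threshold. It stayed between 0.055 and 0.20 under the 12 alternatives. Unlike the factors that fell, *prdm1a* had no low value in mutant replicate D.

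**Figure D2:**
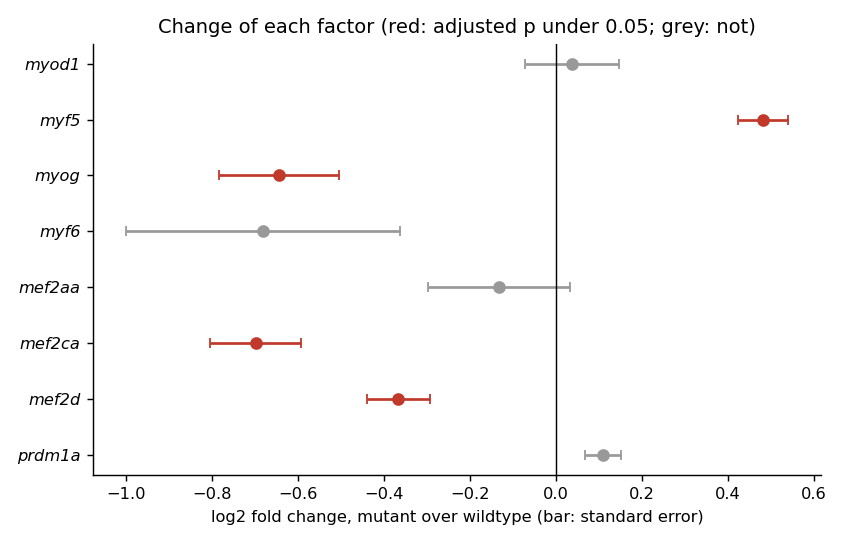
Log2 fold change of each factor, mutant over wildtype, with its standard error from edgeR's quasi-likelihood fit. Red points passed an adjusted p of 0.05 (*myf5* above 0, *myog*, *mef2ca* and *mef2d* below 0), grey points did not.

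Expected counts of 7 of the 8 factors were not whole in at least 1 library, with a distance of up to 0.07 to 0.50 from a whole number, so RSEM had divided some reads between these genes and others. *myf6* had exactly whole counts in all 6 libraries. The levels of different genes are not compared here, since the counts are not divided by transcript length.

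The factors were also compared within each library, where the ratio of 2 genes does not depend on how libraries are scaled. The ratio of *myog* to *myod1* counts was 1.97, 2.13 and 1.79 in mutant replicates A, C and D, and 3.40, 3.12 and 3.03 in wildtype. For this ratio mutant replicate D lay near the other mutants, although both genes were low there. The mean log2 ratio was lower in the mutants by 0.70, with SDs of 0.129 in the mutants and 0.0865 in wildtype (n = 3 each). The two-sided exact permutation p was 0.1, the smallest that 3 against 3 libraries allow, and 0.13 after adjustment over the 4 ratios computed.

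The ratio of *myf5* to *myod1* was 0.940, 1.03 and 1.51 in the mutants and 0.828, 0.859 and 0.784 in wildtype. All mutant libraries were higher, and mutant replicate D was far above the others. The log2 difference was 0.46, with an exact permutation p of 0.1 (adjusted 0.13). *mef2ca* over *mef2d* was 0.365, 0.370 and 0.324 in the mutants and 0.454, 0.452 and 0.437 in wildtype, so *mef2ca* was lower in the mutants relative to *mef2d* as well. That log2 difference was -0.34 with the same exact p of 0.1 (adjusted 0.13). The ratio of *myf6* to *myog*, with few *myf6* counts, overlapped between the genotypes (log2 difference -0.09, exact permutation p = 0.6).

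**Figure D3:**
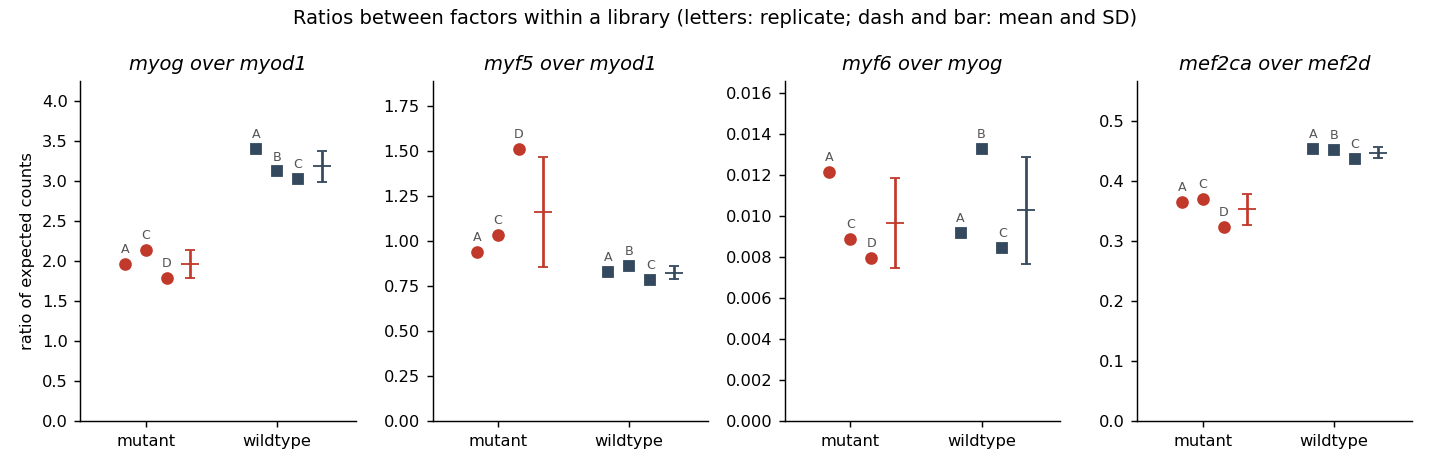
Ratio of expected counts of pairs of factors in each library, mutants (red circles) left of wildtype (blue squares), with mean and SD. *myog* over *myod1* and *mef2ca* over *mef2d* are lower in all 3 mutant libraries, *myf5* over *myod1* is higher, and *myf6* over *myog* overlaps.

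Mutant replicate D was the lowest of the 3 mutant libraries for 6 of the 8 factors, beside 38.5% of all genes tested. Relative to the mean of mutant replicates A and C, it was lower by a log2 difference of 0.70 for *myog*, 0.50 for *myod1*, 0.49 for *mef2ca*, 0.48 for *mef2aa*, 0.31 for *mef2d* and 1.1 for *myf6*, which had few counts, and higher by 0.11 for *myf5* and 0.02 for *prdm1a*. Over all genes above 1 CPM the median of this difference was -0.0032. Muscle structural genes were low in the same library: it was the lowest mutant library for 24 of 26 general muscle differentiation genes and 16 of 17 fast-fibre genes tested. Markers of some other tissues were high there. Epidermis markers summed to 30180 CPM in mutant replicate D, beside 24625 and 27485 CPM in A and C. Notochord markers summed to 2399 CPM, beside 1681 and 1903 CPM. Sums of hatching gland and neural markers were lowest in D, and those of heart and primitive erythroid markers lay between A and C. The part of these levels in the result for the factors was not tested.

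Other genes of the muscle pathway were taken from 6 lists written from general knowledge. Of 107 listed genes 99 could be tested, 8 of them were called higher and 38 lower in the mutants, beside 17.4% and 17.1% of all genes tested. Their median log2 fold change was -0.30, beside -0.00065 for all genes tested. Without wildtype replicate A the number called was 30 in place of 46, and without wildtype replicate C it was 29. The share of all genes called fell as well, from 34.5% to 24.4% and 25.1%. It was 26.5% without wildtype replicate B, 27.5% without mutant replicate C and 28.4% with DESeq2. The lists were described by counts of calls and medians alone.

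Transcription factors of the somite and of muscle precursors were divided. Of 23 tested, 4 were called higher and 6 lower, beside 17.4% and 17.1% of all genes, with a median log2 fold change of -0.07. The largest called rise was that of *mespab*. *mespab*, which acts where the next somite boundary will form, was at 2.76, 2.68 and 1.84 CPM in the mutants and at 1.21, 0.774 and 1.13 CPM in wildtype. Its log2 fold change of 1.22 (edgeR adjusted p = 0.0021) was the only called one over 2-fold in the list. It rests on 29 to 117 expected counts per library, which were not whole (up to 0.42 from a whole number). RSEM had thus divided some reads between *mespab* and other genes, and how much it changed is uncertain. *msgn1* and *tbx16*, which drive the passage of progenitors into the presomitic mesoderm, the unsegmented tissue from which somites form, rose by log2 fold changes of 0.47 each. Their edgeR adjusted p-values of 0.0085 and 0.017 became 0.052 and 0.084 without wildtype replicate A, and *tbx16* was also not called by DESeq2. In mutant replicates A, C and D *msgn1* was at 63.7, 75.3 and 92.8 CPM and *tbx16* at 54.4, 62.3 and 85.5 CPM. Without mutant replicate D the rises were smaller, at 0.31 for *msgn1* and 0.26 for *tbx16*, and both were still called. Other presomitic genes of the list, named after their values were seen, were not called, with *tbx6* at 0.018, *ripply1* at -0.022, *ripply2* at -0.092 and *mespbb* at -0.067. *mespaa* and *mespba*, also not called, were higher at 0.40 and 0.27. For *mespaa* all mutant libraries lay above all wildtype libraries (edgeR adjusted p = 0.057). The falls were led by *pax7a* and *pax7b*, which mark muscle progenitors of the outer somite as well as neural crest and brain. *pax7a* was at 1.97, 1.72 and 1.79 CPM in the mutants and 3.09, 2.94 and 2.72 CPM in wildtype, a log2 fold change of -0.67, and *pax7b* had a log2 fold change of -0.49. *six1a*, a homeobox gene of fast muscle and sense organs, followed at -0.38, and its call was lost without wildtype replicate A, wildtype replicate C or mutant replicate A (highest adjusted p 0.10).

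Among 14 E-protein partners and inhibitors tested, 2 were called higher and 2 lower, near the background, with a median of 0.03. *hes6*, a hairy-related gene of the segmentation clock, was at 66.6, 72.2 and 80.1 CPM in the mutants and at 49.0, 49.6 and 57.5 CPM in wildtype (log2 fold change 0.49, edgeR adjusted p = 6.9e-04). The E-protein genes *tcf3a* and *tcf3b* moved in opposite directions, by 0.22 and -0.14. *id2a*, which encodes an Id inhibitor, had a log2 fold change of -0.27. The call of *id2a* was lost without wildtype replicate C (adjusted p = 0.055) and that of *tcf3b* without mutant replicate C (adjusted p = 0.070).

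Of 9 other MEF2 genes, MEF2 cofactors and repressors, 4 were called, all of them lower, with a median of -0.27 (3 with DESeq2 and 4 with limma-voom). Among all genes tested 34.5% were called, and 17.1% were called lower. *mef2cb*, the other MEF2C gene of zebrafish, averaged 7.51 ± 0.699 CPM in the mutants and 9.76 ± 0.427 CPM in wildtype (SD, n = 3 each). Its libraries did not overlap between the genotypes, and it fell with a log2 fold change of -0.37 (edgeR adjusted p = 0.010). *hdac9b*, which encodes a histone deacetylase that binds MEF2, had a log2 fold change of -0.41. *vgll2a* and *smyd1b*, a cofactor and a myosin-assembly gene of muscle, were at -0.50 and -0.48, but were called in only 6 and 8 of 12 alternatives. Without wildtype replicate B or wildtype replicate C, 2 genes of this list were called in place of 4, beside 26.5% and 25.1% of all genes.

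The genes of slow and fast fibres and of muscle differentiation in general make up the contractile and metabolic apparatus of the fibre and the machinery of fusion. Among all genes tested 17.1% were called lower. Of 10 slow-fibre genes, 6 were called, all of them lower, with a median log2 fold change of -0.63 (6 lower with DESeq2, 7 with limma-voom, and 6 with a median of -0.47 without mutant replicate D). *prox1a*, a homeobox gene that follows *prdm1a* in slow-fibre precursors, was at 12.3, 12.1 and 9.27 CPM in the mutants and at 19.9, 19.3 and 19.3 CPM in wildtype (log2 fold change -0.79, edgeR adjusted p = 1.4e-04). The slow myosin genes *smyhc2* and *smyhc3* fell most, by 1.42 and 1.46 on the log2 scale. These myosin genes are near-identical neighbours whose reads RSEM divides, so how much each of them changed is uncertain.

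Of 17 fast-fibre genes, 6 were called lower and 2 higher, with a median of -0.52. The median was -0.24 without mutant replicate D and -0.29 without wildtype replicate A. With DESeq2, 2 were called lower and 2 higher. Without wildtype replicate A, and likewise without wildtype replicate C, 2 were called lower and 1 higher, and without mutant replicate C 4 lower and 1 higher. The shares of all genes called under these settings, given above, were lower too. *myha*, a fast myosin heavy chain gene, had the lowest log2 fold change, -2.37, on only 2 to 7 counts per mutant library and 15 to 29 per wildtype library. Among the called genes the fast myosins *myhz1_1* and *myhz1_3* followed at -0.95 and -0.83, and both were called in only 7 of 12 alternatives. Their expected counts were not whole (up to 0.21 and 0.45 from a whole number). RSEM had thus divided some of their reads with other genes, and how much each changed is uncertain too. *myhb*, another myosin heavy chain gene, rose to 1.85, 2.20 and 2.70 CPM in the mutants, against 0.993, 1.33 and 0.936 CPM in wildtype (log2 fold change 1.05). *tnnt3b*, a fast troponin T gene, had a log2 fold change of 0.36 and was called in 8 of 12 alternatives.

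Of 26 general muscle differentiation genes, 14 were called, all of them lower (8 with DESeq2 and 18 with limma-voom), with a median of -0.46. Without mutant replicate D, 19 were called lower and the median was -0.26. The number called was 7 without wildtype replicate A and 8 without wildtype replicate C, beside 24.4% and 25.1% of all genes. *stac3*, which is needed for the coupling of excitation to contraction, was at 6.45, 5.66 and 3.39 CPM in the mutants and at 9.18, 8.97 and 8.31 CPM in wildtype (log2 fold change -0.76, edgeR adjusted p = 0.0068). *tmem8c*, the older name of the myoblast fusion gene *mymk*, fell by 0.75 on the log2 scale. *acta1b*, a skeletal actin gene, was at -0.61 and lost its call with DESeq2 and without wildtype replicate A (highest adjusted p 0.076).

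**Figure D4:**
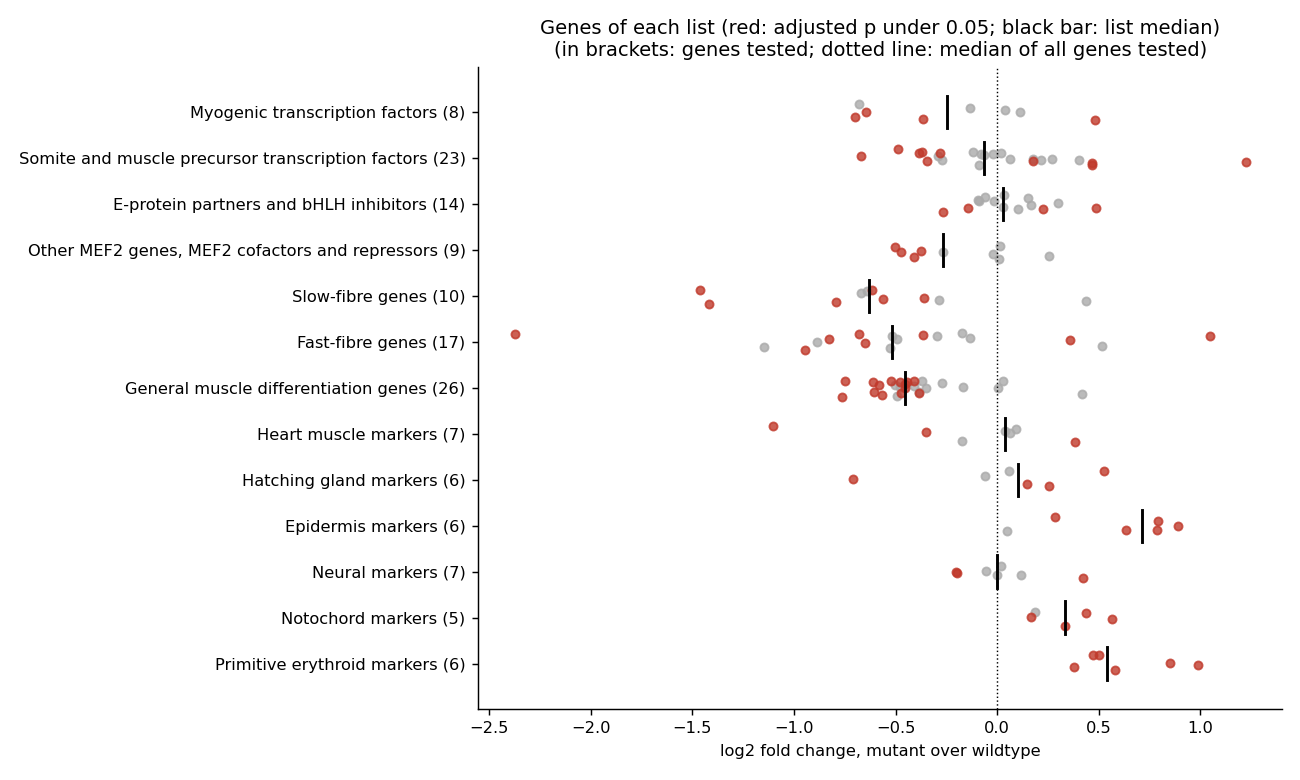
Log2 fold change, mutant over wildtype, of each tested gene of the 8 factors, of the 6 lists of other muscle pathway genes and of 6 lists of markers of other tissues. Red points passed an adjusted p of 0.05, black bars are list medians, which run from -0.63 for slow-fibre genes to 0.71 for epidermis markers, and the dotted line is the median of all genes tested.

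Since *myog*, *mef2ca* and *mef2d* were low together with the muscle structural genes, their levels were also set against the summed CPM of the 26 general muscle differentiation genes in the same library, a description chosen after the values were seen. That sum was 2664 to 4193 CPM in the mutants, lowest in replicate D, and 4939 to 5310 CPM in wildtype. A gene with unchanged CPM therefore comes out higher in the mutants on this scale, most of all in replicate D. The sum is not made of structural genes alone. Its largest part in every library was the Hsp90 gene *hsp90aa1_1*, at 625 to 992 CPM in the mutants and 1250 to 1388 CPM in wildtype. Per 1000 CPM of the sum, *myog* was at 20.4, 21.6 and 20.2 in mutant replicates A, C and D and at 23.2, 23.7 and 23.7 in wildtype. On this scale mutant replicate D no longer lay apart for *myog*, and the mutants stayed below wildtype by a narrower margin. *mef2ca* was at 12.2, 12.0 and 13.5 in the mutants and at 14.8, 14.8 and 14.1 in wildtype, again lower without overlap. *mef2d* overlapped, at 33.4, 32.3 and 41.7 in the mutants and 32.6, 32.8 and 32.3 in wildtype. *myod1* was higher, at 10.4, 10.1 and 11.3 in the mutants and 6.82, 7.58 and 7.82 in wildtype, and so were *myf5* (9.74 to 17.1 in the mutants and 5.65 to 6.51 in wildtype) and *prdm1a* (22.8 to 36.4 in the mutants and 17.2 to 17.8 in wildtype). *mef2aa* was higher too, at 1.07 to 1.21 in the mutants and 0.788 to 1.02 in wildtype, and *myf6* overlapped. No test was run on these values.

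Markers of other tissues that express some of the factors, or that surround the muscle, were counted in the same way, against the background of 17.4% of all genes called higher and 17.1% called lower. The summed CPM of 7 heart muscle markers was 37.4 to 41.0 in the mutants and 36.3 to 40.1 in wildtype, with 1 gene called higher and 2 lower. Of these, *hand2* had a log2 fold change of 0.38. It made up a large part of the sum, at 19.1 to 22.4 CPM in the mutants and 14.4 to 17.4 CPM in wildtype. *cmlc1*, at 1.04 to 1.51 CPM in the mutants and 2.22 to 3.35 CPM in wildtype, had a log2 fold change of -1.10. The heart myosin gene *vmhc* was at -0.35, with 7.61 to 9.67 CPM in the mutants and 10.7 to 11.7 CPM in wildtype. The call of *vmhc* was lost without wildtype replicate A or wildtype replicate C. The sum of the list thus joins a called rise with called falls. The 6 hatching gland markers, a site of *prdm1a* expression, summed to 4745 to 5299 CPM in the mutants and 4457 to 4847 CPM in wildtype, with 3 called higher and 1 lower. The hatching enzyme gene *he1b* was at -0.71, and *klf4b*, the name in the table for *klf17*, at 0.53. The other hatching enzyme gene of the list, *he1a*, was not called, at 0.06. Expected counts of *he1a* and *he1b* were not whole (up to 0.46 from a whole number for each), so how much each changed is uncertain. Epidermis markers were called higher in 5 of 6 genes, led by the keratin gene *krt18* with a log2 fold change of 0.89. Sums over the 6 were 24625 to 30180 CPM in the mutants and 16449 to 17514 CPM in wildtype. Of 5 notochord markers 4 were called higher, with sums of 1681 to 2399 CPM in the mutants and 1361 to 1614 CPM in wildtype. Most of the sum was *col2a1a*, at 1493 to 2160 CPM in the mutants and 1213 to 1452 CPM in wildtype. Without wildtype replicate A, 2 of the notochord markers were called, beside 24.4% of all genes, and *col2a1a* was not among them. *shha* was called in only 8 of 12 alternatives. *ntla*, the Brachyury gene of the notochord and tailbud, was at 111 to 157 CPM in the mutants and 81.1 to 91.8 CPM in wildtype. All 6 primitive erythroid markers were called higher, with sums of 173 to 213 CPM in the mutants and 116 to 142 CPM in wildtype. The largest log2 fold change among them was 0.99 for *slc4a1a*. For *hbae1* the libraries overlapped between the genotypes, and it was called in only 8 of 12 alternatives. Of 7 neural markers 1 was called higher (*neurog1*, 0.42) and 2 lower (*sox3*, -0.20, not called without wildtype replicate C), and the sums were 1355 to 1500 CPM in the mutants and 1485 to 1508 CPM in wildtype. None of these markers was at 0 in any library. The part of these shifts in the levels of the myogenic factors was not tested.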

How the data were processed

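Polyadenylated RNA of pooled *dusp2/dusp6* double mutant and pooled wildtype embryos was sequenced as stranded libraries, 3 per genotype. Per the labels and methods, the authors checked reads with FastQC, aligned them to the DanRer7 transcriptome with RSEM 1.2.28 and filtered out ribosomal RNA; the deposited values are expected counts per gene. GRCz10 is also named, without a role. The authors' deposited DESeq2 results (means, fold changes, statistics and p-values) were not used. Columns carry genotype and a letter, so they were assigned to genotypes, and 0 columns of per-library values were left unused. Counts were rounded, filtered (filterByExpr), TMM-scaled and compared with edgeR 4.0.16 (glmQLFit, glmQLFTest, two-sided) in R 4.3.3. Standard errors are the log2 fold change divided by the square root of F. The steps were also run on simulated data in which far fewer genes changed than were called here. That run therefore does not show how often they err in these data.

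All 8 factors are named. Of each pathway list, genes called over 2-fold and the 3 largest called rises and falls are named, of marker lists 1 of each. The called *mef2cb* and *vmhc* were added afterwards. Members and lists were chosen with earlier results of these data known. List genes were matched by symbol or RefSeq synonym (GRCz12tu). Alternatives were other scalings, DESeq2 1.42.0, limma-voom (limma 3.58.1), 2 filters and leaving out each library.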

Additional observations from a re-analysis of the deposited data

How the results depend on the processing

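The calls of *myf5*, *myog*, *mef2ca* and *mef2d* held under all 12 alternatives, and 4 factors were called under each of them except without mutant replicate D, where *myod1* was added (5 called). With single libraries left out, log2 fold changes of *myod1* ran from -0.051 to 0.18, with values below 0 without mutant replicate A or mutant replicate C, and those of *mef2aa* from -0.22 to 0.018, with values above 0 without wildtype replicate A or mutant replicate D. The number of called genes was 29 to 55 in the muscle pathway lists, beside 46 with all libraries. The share of all genes called ran from 24.4% to 39.1% over the alternatives. Requiring a CPM over 1 in 3 or more libraries left fewer genes to test, and 552 in place of 992 were called with a fold change over 2. No paired analysis was possible because the columns carry letters, and no source ties a letter to a replicate number or says that libraries of the same letter belong together. *myf6* had 16 to 58 counts per library, the fewest of the factors.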
